A study of Mus musculus with 8 samples.

Results

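Collagen genes encode the chains of the collagens, the main structural proteins of the extracellular matrix. They were taken as the protein-coding rows of the deposited count table whose mouse symbol is Col, a number, the letter a and a number, with at least 40 counts in total over the 8 libraries. The rule took 32 of 40838 rows: 9 genes of fibrillar collagens, 6 of basement membrane collagens and 17 of other collagens. The table held 44 collagen symbols, and the 12 left out had 33 counts or fewer in all. Col26a1 had 0 counts in every library. Nearest to the threshold were Col17a1 inside it, with 73 counts, and Col8a2 outside it, with 33 counts.

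The samples were livers of C57BL/6 mice, a common inbred strain, fed for 16 weeks with a NASH diet, one that brings on nonalcoholic steatohepatitis. After 7 weeks the Lpcat3 group (4 libraries) received AAV-TBG-Lpcat3 and the eGFP group (4 libraries) received AAV-TBG-eGFP, and both stayed on the diet for 9 weeks more. An adeno-associated virus (AAV) carried the gene, and TBG is a promoter that is active in hepatocytes, so that the transgene was directed at hepatocytes and not at the matrix-producing cells of the liver. Both groups therefore carried a virus and the diet, and no untreated or chow-fed liver is part of the comparison. Age and sex are not given in the labels. Whether each sample came from its own animal is not stated, so the p-values below speak only of the spread among these 8 samples, which may be technical.

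A collagen molecule is a helix of chains wound around each other, which are hydroxylated and folded in the endoplasmic reticulum, secreted as procollagen, trimmed outside the cell and crosslinked. Fibrillar collagens, above all types I and III, build the scar of a fibrotic liver and are made there mainly by activated stellate cells and portal fibroblasts. Type IV collagen forms the sheet-like network of basement membranes, while the other collagens coat fibrils, form beaded filaments or networks, or span the cell membrane.

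The start regions of a few members are shown because their mRNA levels are followed most closely in what comes next. Sequences are from RefSeq for the build GRCm38.p6, which gave a window of 250 bases before to 50 bases after the annotated start for 27 of 32 members. Col1a1 was not among them. The genes Col4a1 and Col4a2, which encode the chains of the common type IV collagen, lie head to head on opposite strands, and their annotated transcripts share 22 bases. These are in capitals in the stretch chr8:11312801-11312830 (plus strand, the strand of Col4a2).
Col4a1 and Col4a2: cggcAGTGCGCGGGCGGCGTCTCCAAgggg
For Col1a2 and Col3a1, whose transcripts were low in the same library, and for Col27a1, whose transcript was not, the 250 bases before the start are printed, at chr6:4505368-4505617, chr1:45311288-45311537 and chr4:63215162-63215411, each on the plus strand. Capitals mark the CCAAT box, the TATA box (searched as TATAAA) and the GC box (searched as GGGCGG), on either strand, and no marked matches overlap.
Col1a2: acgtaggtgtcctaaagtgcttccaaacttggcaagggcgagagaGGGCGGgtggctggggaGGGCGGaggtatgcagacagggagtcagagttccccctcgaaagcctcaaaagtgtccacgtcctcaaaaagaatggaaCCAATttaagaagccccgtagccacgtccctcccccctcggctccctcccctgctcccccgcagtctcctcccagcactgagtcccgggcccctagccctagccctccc
Col3a1: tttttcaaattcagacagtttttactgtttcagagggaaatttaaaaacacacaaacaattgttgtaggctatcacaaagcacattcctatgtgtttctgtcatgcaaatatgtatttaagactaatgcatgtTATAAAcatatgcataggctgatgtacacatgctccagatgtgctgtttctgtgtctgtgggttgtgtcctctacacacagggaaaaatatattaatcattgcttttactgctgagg
Col27a1: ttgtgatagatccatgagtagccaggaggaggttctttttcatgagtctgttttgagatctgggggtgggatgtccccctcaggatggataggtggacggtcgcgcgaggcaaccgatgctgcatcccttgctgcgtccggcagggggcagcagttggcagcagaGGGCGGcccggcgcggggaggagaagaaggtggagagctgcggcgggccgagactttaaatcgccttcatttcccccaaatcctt
Over the full windows of 300 bases, the GC box was in 17 of the 27 members (63.0%) and in 35.7% of all 32851 windows. The 27 members had 29 windows, and a member was counted if any of its windows held a match. The shares of members and of windows are thus of unlike units. The CCAAT box was in 9 members (33.3%) and in 37.4% of all windows, and the TATA box in 5 members (18.5%) and in 13.6% of all windows. The median base composition was 60.0% G and C in the members' windows and 52.7% in all windows. A match describes letters and is not a binding site.

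Library totals ran from 22433625 to 25651874 counts, and collagen genes held 21483 to 30866 counts in the Lpcat3 libraries and 28072 to 32474 in the eGFP libraries. Lpcat3, the targeted gene, was at 274, 401, 465 and 311 CPM in the Lpcat3 libraries, against 158, 148, 133 and 173 CPM in the eGFP libraries. CPM are counts scaled to a common library size and composition. The groups did not overlap, with a 2.37-fold higher mean in Lpcat3 livers (two-sided exact permutation test, p = 0.0286, the smallest that 4 against 4 allows), a log2 fold change of 1.25 ± 0.17 (SE) and an edgeR adjusted p of 0.164. Lpcat3 replicate 3 stood apart in collagen: of the 32 members, 16 were lowest of all 8 libraries there, while 20.8% of all genes tested were. It had the highest Lpcat3 level too, and whether these go together was not tested. Lpcat3 replicate 2, next at 401 CPM, had summed fibrillar transcripts of 278 CPM, inside the eGFP range of 238 to 291 CPM. Values without Lpcat3 replicate 3 are given beside many of those it moves, and a value given alone may also depend on it. The sample codes carry the numbers 1290 and 1317 in 1 Lpcat3 and 3 eGFP libraries, and 1344 and 1345 in 3 Lpcat3 and 1 eGFP libraries. Their meaning is not given, and this division goes partly with the groups.

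Per kilobase of exon, Col18a1 was the most abundant collagen transcript, at 85.3 ± 9.21 CPM per kb in Lpcat3 livers and 82.9 ± 9.71 in eGFP livers (SD, n = 4 each). Col18a1 encodes type XVIII collagen, which carries the fragment endostatin at its end and is made by hepatocytes as well as by vessel cells. Col14a1, a collagen that binds to the surface of fibrils, came next at 18.9 ± 2.03 CPM per kb in Lpcat3 livers and 21.9 ± 1.6 in eGFP livers. Col3a1 (12.7 ± 5.58 CPM per kb in Lpcat3 livers and 15.3 ± 1.94 in eGFP livers) and Col1a1 (9.78 ± 5.19 in Lpcat3 livers and 11.7 ± 1.57 in eGFP livers) followed, and Col4a1, Col1a2 and Col4a2 completed the first 7, in the same order in both groups. From Col3a1 to Col4a2, the ranges of neighbours in this order overlapped over the libraries in both groups. At the low end, Col17a1, Col25a1, Col6a5 and Col6a6 were at or below 0.0818 CPM per kb on average in either group.

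**Figure D1:**
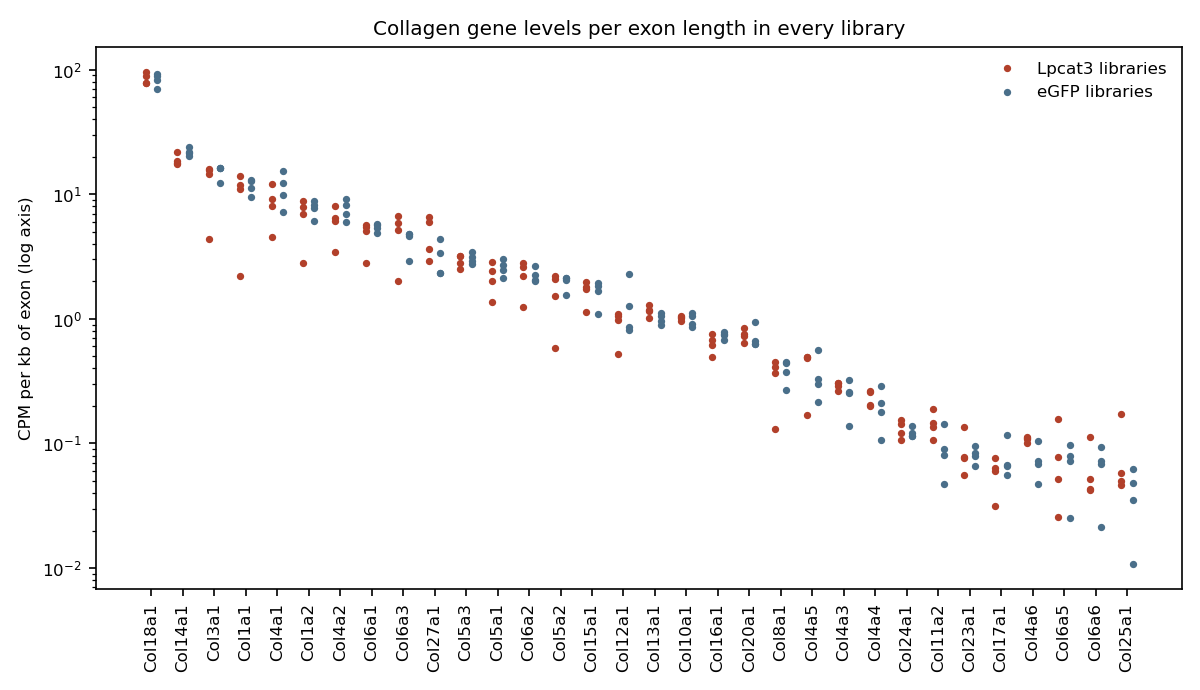
Level of each of the 32 collagen genes in CPM per kilobase of exon (log axis), one point per library, Lpcat3 libraries left of eGFP libraries, ordered by mean level. Col18a1 lies above all others, and for many of the abundant genes 1 Lpcat3 point lies below the rest.

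The comparison asks whether raised hepatic Lpcat3 went with another level of collagen transcripts in livers of mice fed the NASH diet. No collagen gene passed the test. Of the 30 members with enough counts to be tested, 0 had an adjusted p under 0.05 (edgeR's quasi-likelihood test with Benjamini-Hochberg adjustment over 17438 genes), where 0.00573% of all genes did. DESeq2 and limma-voom also called 0 members, where limma-voom called 0.00573% of all genes and DESeq2 called 0.135% lower and 0.164% higher. At an unadjusted p under 0.05, 1 member was lower, Col14a1, and 0 were higher, against 5.18% and 3.3% of all genes. The estimate was below 0 for 15 of 30 members and for 51.5% of all genes, and the median log2 fold change was 0.01 for the members and -0.01 for all genes. By class, the median was -0.23 for fibrillar, 0.24 for basement membrane and 0.03 for other collagens. The basement membrane median rests on 4 rare chains, Col4a3, Col4a4, Col4a5 and Col4a6, at 0.24 to 0.56. The abundant chains Col4a1 and Col4a2 were at -0.40 and -0.34, so this median does not stand for most transcripts of the class. No member had groups that did not overlap, as 2.24% of all genes did with lower and 1.93% with higher values in Lpcat3 livers. The 2 members not tested, Col25a1 and Col17a1, had too few counts, and all 32 were tested with the filter set at a total of 40 (16 below 0, against 51.5% of all genes, and 0 called).

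**Figure D2:**
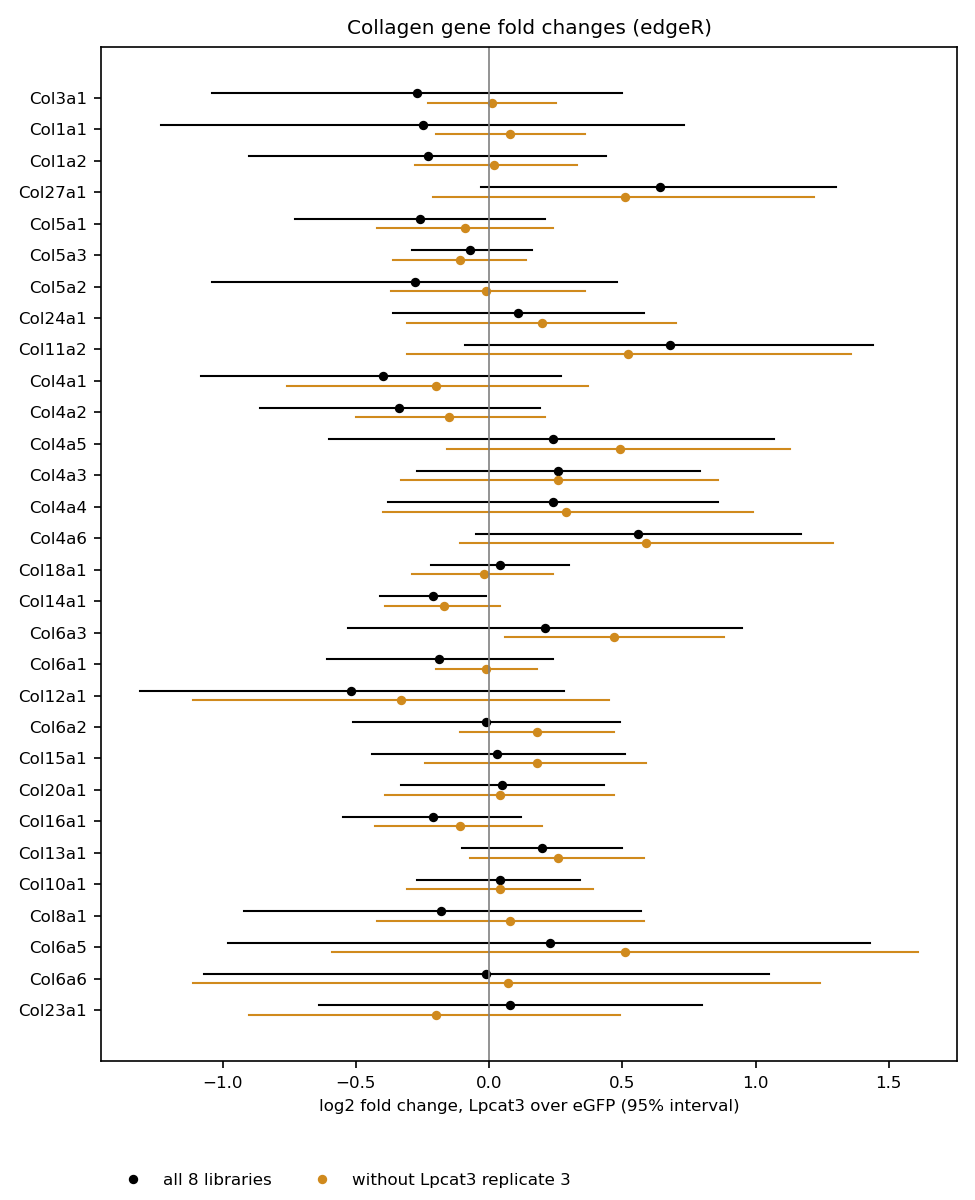
Log2 fold change of Lpcat3 over eGFP livers for the 30 collagen genes tested, with its 95% interval, from the fit of all 8 libraries (black) and without Lpcat3 replicate 3 (orange). The intervals of Col14a1 with all libraries and of Col6a3 without that library are the ones that leave out 0.

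Type I and type III collagen, the bulk of fibrils, showed the library that stood apart most clearly. Col1a1, the main chain of type I collagen, was at 82.9, 65.7, 13.1 and 70.3 CPM in the Lpcat3 libraries, against 67.0, 76.5, 76.1 and 56.8 CPM in the eGFP libraries. Col1a2, its partner chain, was at 47.1, 36.8, 14.9 and 42.2 CPM in the Lpcat3 libraries, against 44.2, 47.4, 41.4 and 32.4 CPM in the eGFP libraries. Col3a1, the chain of type III collagen, was at 88.9, 81.4, 24.1 and 87.4 CPM in the Lpcat3 libraries, against 90.8, 89.9, 91.0 and 69.0 CPM in the eGFP libraries. For all 3 genes the lowest value of the 8 was in Lpcat3 replicate 3, and no other Lpcat3 library was below the lowest eGFP library. The log2 fold changes were -0.25 (95% interval -1.23 to 0.73) for Col1a1, -0.23 (-0.90 to 0.44) for Col1a2 and -0.27 (-1.04 to 0.50) for Col3a1. Without Lpcat3 replicate 3 they turned to 0.08 (-0.20 to 0.36) for Col1a1, 0.02 (-0.28 to 0.33) for Col1a2 and 0.01 (-0.23 to 0.25) for Col3a1. A p that misses the threshold does not show that the groups were alike, and these intervals are the sizes the data still allow.

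Type V collagen, which starts fibrils and limits their width, followed for 2 of its 3 chains. Col5a2 was at 14.7, 10.1, 3.84 and 13.9 CPM in the Lpcat3 libraries, against 13.5, 14.0, 14.2 and 10.2 CPM in the eGFP libraries. Col5a1 was at 24.0, 17, 11.4 and 20.4 CPM in the Lpcat3 libraries, against 20.9, 22.9, 25.4 and 17.8 CPM in the eGFP libraries. Both were lowest in Lpcat3 replicate 3, with log2 fold changes of -0.28 for Col5a2 and -0.26 for Col5a1, and of -0.01 and -0.09 without that library. Col5a3, the third chain, was at 19.5, 15.4, 19.5 and 17.1 CPM in the Lpcat3 libraries, against 17.8, 20.9, 19.2 and 16.9 CPM in the eGFP libraries. Lpcat3 replicate 3 was not low for it, and its log2 fold change was -0.07 (95% interval -0.29 to 0.16), and -0.11 without that library.

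The minor fibrillar collagens had other patterns. Col27a1, known from cartilage, was at 22.3, 50.1, 45.8 and 27.9 CPM in the Lpcat3 libraries, against 25.6, 17.7, 17.6 and 33.1 CPM in the eGFP libraries. Its values in Lpcat3 replicates 2 and 3 were above those of every eGFP library and the groups overlapped. The log2 fold change was 0.64 (95% interval -0.03 to 1.30, edgeR adjusted p = 0.597), and 0.51 without Lpcat3 replicate 3. Within codes 1290 and 1317 the difference in log2 CPM was 0.16, and within 1344 and 1345 it was 0.27, so the pooled value is more than 1.5 times either. Col11a2, a chain of type XI collagen, was at 0.861, 0.928, 1.20 and 0.676 CPM in the Lpcat3 libraries, against 0.511, 0.572, 0.297 and 0.909 CPM in the eGFP libraries. This rests on 8 to 25 counts a library, and the log2 fold change was 0.68 (95% interval -0.09 to 1.44, edgeR adjusted p = 0.616). Without Lpcat3 replicate 3, its highest library, it was 0.52. Within codes 1290 and 1317 the difference for Col11a2 was 0.84, within 1344 and 1345 it was 0.0, and with a term for the code division the log2 fold change was 0.44. Col24a1 was at 0.767 to 1.10 CPM in the Lpcat3 libraries and 0.817 to 0.991 CPM in the eGFP libraries. Col11a1 and Col2a1, chains of cartilage fibrils, had 1 count each in all libraries together and were not members.

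**Figure D3:**
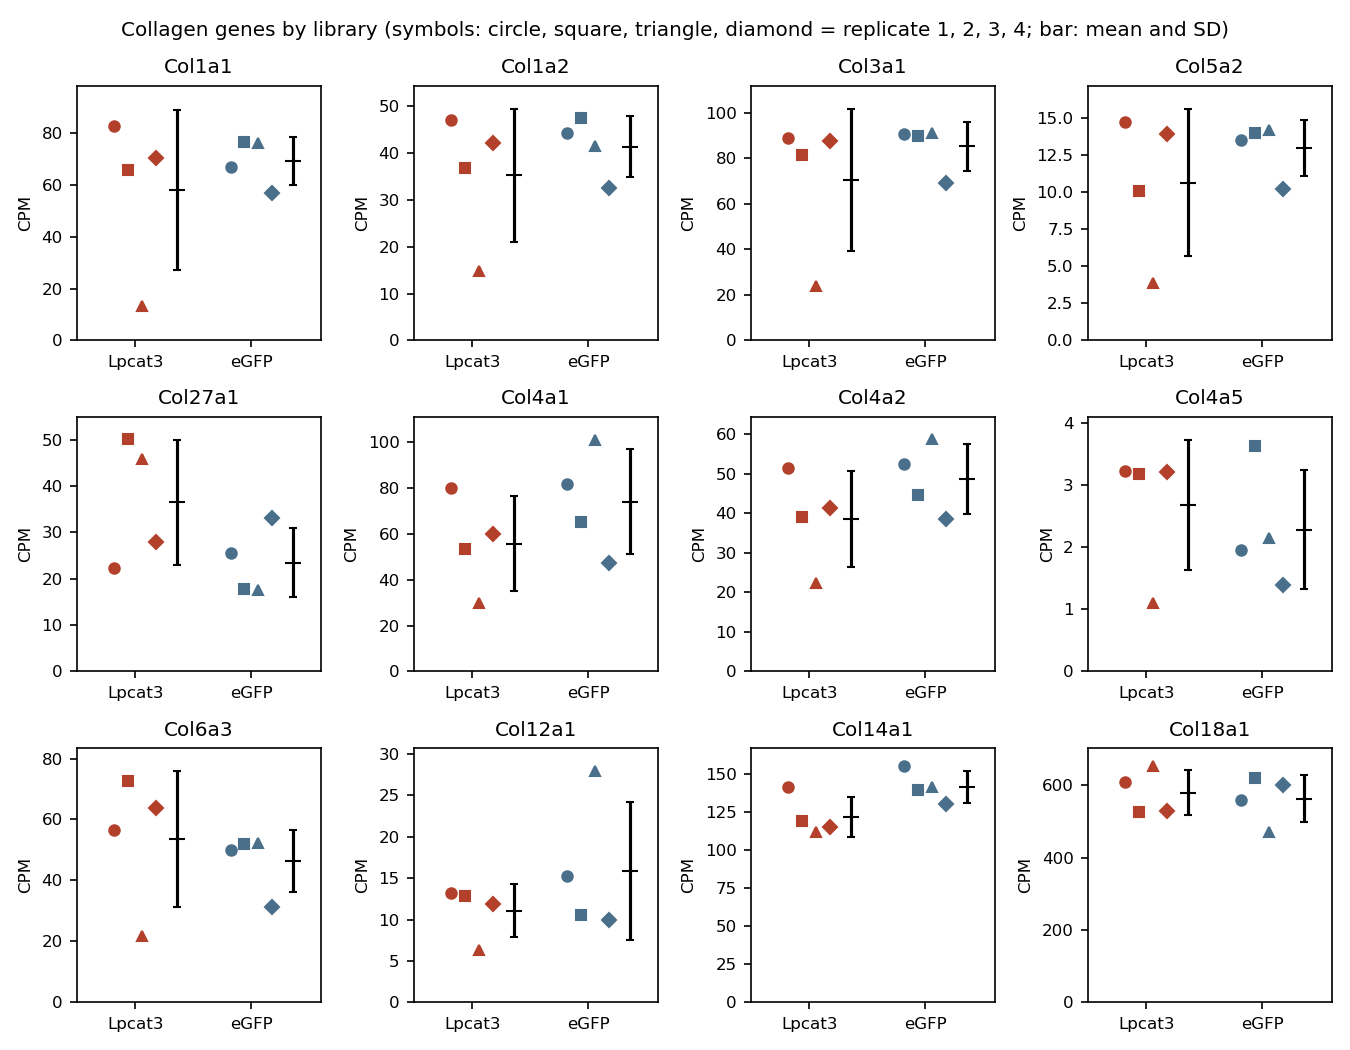
CPM of 12 collagen genes in every library, Lpcat3 left and eGFP right in each panel; symbols are replicates 1 to 4 and the black bars give mean and SD (n = 4). The red triangle, Lpcat3 replicate 3, is the lowest point of 10 panels, and not in those of Col27a1 and Col18a1.

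The common basement membrane chains were lowest in the same library. Col4a1 was at 79.7, 53.2, 29.9 and 60.0 CPM in the Lpcat3 libraries, against 81.6, 65.3, 101 and 47.4 CPM in the eGFP libraries. Col4a2 was at 51.5, 39.0, 22.3 and 41.3 CPM in the Lpcat3 libraries, against 52.6, 44.6, 58.9 and 38.5 CPM in the eGFP libraries. Besides the low value in Lpcat3 replicate 3, both had their highest value in eGFP replicate 3, and the groups overlapped. The log2 fold changes were -0.40 (95% interval -1.08 to 0.27) for Col4a1 and -0.34 (-0.86 to 0.19) for Col4a2, and -0.20 and -0.15 without Lpcat3 replicate 3. Col4a1 differed by -0.03 within codes 1290 and 1317 and by -0.05 within codes 1344 and 1345, and the log2 fold change was -0.02 with a term for the code division. For Col4a2 these values were -0.01, -0.22 and -0.09. The pooled values of both genes are thus more than 1.5 times those within codes. Reads from the few bases shared by these 2 genes, printed above, cannot be assigned without strand, and the counting's use of strand is not given in the sources used here.

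The chains known best from specialised basement membranes were much rarer. Col4a3 and Col4a4, adjacent genes whose chains join that of Col4a5 in the kidney glomerulus, were at 2.24 to 2.63 and 2.02 to 2.67 CPM in the Lpcat3 libraries, against 1.19 to 2.74 and 1.08 to 2.94 CPM in the eGFP libraries. Both were lowest of all 8 in eGFP replicate 3 and highest in eGFP replicate 2. Col4a5 was at 3.23, 3.18, 1.10 and 3.22 CPM in the Lpcat3 libraries, against 1.96, 3.64, 2.15 and 1.40 CPM in the eGFP libraries, and so shared the low value of Lpcat3 replicate 3. Col4a6, its neighbour on chromosome X with a start 1343 bases away in GRCm38.p6, was at 0.732, 0.751, 0.671 and 0.716 CPM in the Lpcat3 libraries, against 0.314, 0.694, 0.483 and 0.454 CPM in the eGFP libraries. Here Lpcat3 replicate 3 was not low. With 8 to 18 counts a library, the log2 fold change of Col4a6 was 0.56 (95% interval -0.05 to 1.17, edgeR adjusted p = 0.606).

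Among the other collagens, Col18a1 was by far the most abundant. It was at 608, 527, 654 and 528 CPM in the Lpcat3 libraries, against 560, 621, 472 and 600 CPM in the eGFP libraries. Lpcat3 replicate 3, lowest for so many members, was highest of all 8 here, and the log2 fold change was 0.04 (95% interval -0.22 to 0.30), and -0.02 without that library. As a result Col18a1 made up 63.5% of the collagen counts in Lpcat3 replicate 3, 44.7% to 45.8% in the other Lpcat3 libraries and 39.1% to 51.8% in the eGFP libraries. The fibrillar genes made up 13.1% in Lpcat3 replicate 3, 22.7% to 23.9% in the other Lpcat3 libraries and 20.5% to 23.7% in the eGFP libraries. Col15a1, the other multiplexin (a collagen with an interrupted helix near basement membranes), was at 10.9, 10.5, 6.86 and 11.8 CPM in the Lpcat3 libraries, against 11, 11.7, 9.99 and 6.53 CPM in the eGFP libraries. Its lowest value was in eGFP replicate 4, just below that of Lpcat3 replicate 3.

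The collagens that coat fibrils (FACIT, fibril-associated with interrupted helices) held the smallest p of the family. Col14a1 was at 141, 119, 112 and 115 CPM in the Lpcat3 libraries, against 155, 139, 141 and 130 CPM in the eGFP libraries. In the Lpcat3 libraries 3 of 4 values were below every eGFP library and 1 was not. The log2 fold change was -0.21 (95% interval -0.41 to -0.01, edgeR adjusted p = 0.581), and -0.17 without Lpcat3 replicate 3 (edgeR adjusted p = 0.846). Within codes 1290 and 1317 its difference was -0.04 and within 1344 and 1345 it was -0.17. Col12a1, which binds fibrils under tension, was at 13.2, 12.9, 6.33 and 11.9 CPM in the Lpcat3 libraries, against 15.3, 10.5, 27.9 and 9.91 CPM in the eGFP libraries. Its log2 fold change was -0.52 with all libraries, -0.10 without eGFP replicate 3, which had the highest value, -0.33 without Lpcat3 replicate 3, which had the lowest, and 0.09 without both. Col16a1 was at 2.59 to 3.92 CPM in the Lpcat3 libraries and 3.55 to 4.05 CPM in the eGFP libraries, and Col20a1 at 3.30 to 4.30 CPM in the Lpcat3 libraries and 3.22 to 4.82 CPM in the eGFP libraries.

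Type VI collagen forms beaded filaments around cells from the chains of Col6a1, Col6a2 and Col6a3. Col6a3 was at 56.5, 72.7, 21.8 and 63.9 CPM in the Lpcat3 libraries, against 50.0, 52.0, 52.4 and 31.3 CPM in the eGFP libraries. The Lpcat3 libraries other than replicate 3 were all above the eGFP libraries, and replicate 3 was below all. Col6a1 was at 22.4, 23.0, 11.6 and 20.7 CPM in the Lpcat3 libraries, against 23.1, 23.6, 21.8 and 20.0 CPM in the eGFP libraries. Col6a2 was at 15.7, 17, 7.53 and 13.2 CPM in the Lpcat3 libraries, against 12.1, 15.9, 13.6 and 12.3 CPM in the eGFP libraries. For each of these genes the lowest value was that of Lpcat3 replicate 3. The log2 fold changes were 0.21 for Col6a3, -0.19 for Col6a1 and -0.01 for Col6a2, and without that library they were 0.47, -0.01 and 0.18. Col6a5 and Col6a6, alternative chains at under 1.5 CPM in each library, had 5 to 37 and 5 to 26 counts a library.

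The remaining members were rare. Col13a1, a transmembrane collagen, was at 3.74, 3.67, 3.26 and 4.14 CPM in the Lpcat3 libraries, against 3.10, 3.55, 2.86 and 3.39 CPM in the eGFP libraries, with a log2 fold change of 0.20 (95% interval -0.10 to 0.50). Lpcat3 replicates 1, 2 and 4 were above every eGFP library and replicate 3 was not. Col8a1, a chain of a vessel wall network collagen, was at 2.28, 1.86, 0.671 and 2.11 CPM in the Lpcat3 libraries, against 1.38, 1.92, 2.30 and 2.27 CPM in the eGFP libraries, again lowest in Lpcat3 replicate 3. Col10a1, known from growth plate cartilage, was at 3.0 to 3.30 CPM in the Lpcat3 libraries and 2.71 to 3.51 CPM in the eGFP libraries. The gene Nt5dc1, with 4240 counts in all against 604 for Col10a1, overlaps it, so that some of these reads may belong to Nt5dc1. Another annotated gene overlaps 16 of the 32 members. The transmembrane collagens Col23a1, Col25a1 and Col17a1 had 2 to 25 counts a library, and the 25 counts of Col25a1 were in Lpcat3 replicate 3, where 8 or 9 were found in the other Lpcat3 libraries and 2 to 11 in the eGFP libraries.

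**Figure D4:**
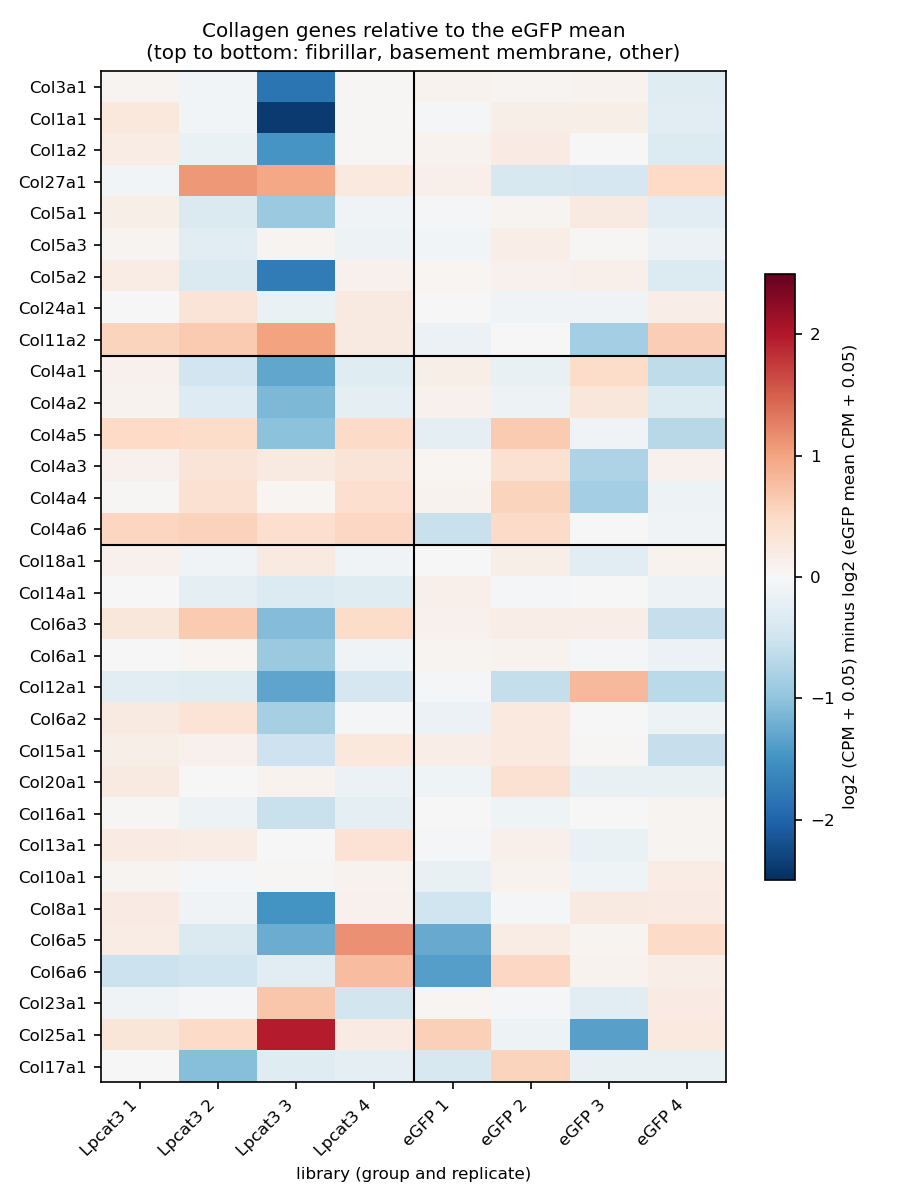
Log2 difference of each library's CPM from the eGFP mean (0.05 CPM added to both) for the 32 collagen genes, Lpcat3 libraries left and eGFP libraries right, with fibrillar, basement membrane and other collagens from top to bottom. The column of Lpcat3 replicate 3 holds the lowest value of 16 genes, but not of Col27a1, Col11a2, Col4a6 or Col18a1.

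Counted over the family, the low values of Lpcat3 replicate 3 comprised 6 of 9 fibrillar, 3 of 6 basement membrane and 7 of 17 other members. Among the 16 members at 5 CPM or more it was lowest for 12, and for 4 members it was highest. Summed fibrillar transcripts came to 301, 278, 135 and 281 CPM in the Lpcat3 libraries, against 281, 291, 286 and 238 CPM in the eGFP libraries. Summed basement membrane transcripts came to 139, 101, 58.5 and 111 CPM in the Lpcat3 libraries, against 141, 120, 164 and 91.8 CPM in the eGFP libraries. Within the eGFP group, replicate 4 was lowest for both sums, at 238 and 91.8 CPM, though above Lpcat3 replicate 3. The median SD of the members' log2 CPM was 0.46 in the Lpcat3 libraries and 0.25 in the eGFP libraries, and 0.17 in the Lpcat3 libraries without replicate 3. For all genes these medians were 0.18, 0.20 and 0.15.

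Without Lpcat3 replicate 3, the fibrillar median log2 fold change was 0.02, the basement membrane median 0.28 and that of the other collagens 0.04. Of the 30 members, 11 were then below 0, against 52.5% of all genes, and 0 were called, against 0.0% of all genes. At an unadjusted p under 0.05 there was 1, Col6a3 (log2 fold change 0.47, 95% interval 0.06 to 0.88, edgeR adjusted p = 0.816), against 5.98% of all genes. The groups then did not overlap for 3 of 32 members, Col6a3, Col13a1 and Col4a6, all higher in Lpcat3 livers, against 6.4% of all genes in either direction. Within codes 1290 and 1317 (1 Lpcat3 and 3 eGFP libraries) the median difference in log2 CPM was 0.08 for fibrillar, 0.15 for basement membrane and 0.13 for other collagens. Within codes 1344 and 1345 (3 Lpcat3 and 1 eGFP libraries) it was -0.17 for fibrillar, 0.30 for basement membrane and -0.14 for other collagens, and without Lpcat3 replicate 3 these medians were 0.17, 0.38 and -0.02. With a term for the code division, the medians were 0.01 for fibrillar, 0.19 for basement membrane and -0.01 for other collagens. Among these fits and divisions, the fibrillar median was negative only where Lpcat3 replicate 3 took part.

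Markers of the cells that make collagen did not all go with the low values. Summed hepatic stellate cell markers (10 genes, among them Lrat and Pdgfrb, with none at 0 in any library) came to 509 CPM in Lpcat3 replicate 3, 521 to 617 in the other Lpcat3 libraries and 516 to 598 in the eGFP libraries. Summed myofibroblast markers (7 genes) came to 16 CPM there, 28.3 to 32.9 in the other Lpcat3 libraries and 22.5 to 31.9 in the eGFP libraries. Of these 7, Acta2 and Itga8 were lowest in Lpcat3 replicate 3, and Thy1 and Myh11 were not low there. Itga8 held most of the sum, with 11.2 CPM in that library, 17 to 24.0 CPM in the other Lpcat3 libraries and 13.5 to 25.2 CPM in the eGFP libraries. Actg2 was at 0 in Lpcat3 replicates 2 and 3, and Tagln in eGFP replicates 1 and 3. Markers of portal fibroblasts and mesothelium (9 genes, with 5 lowest in Lpcat3 replicate 3 and none at 0 there) came to 12.8 CPM in that library, 22.2 to 25.7 in the other Lpcat3 libraries and 18.4 to 29 in the eGFP libraries. Lpcat3 replicate 3 was thus below all other libraries in each of these sums, by a small margin for stellate cells. Of the 10 stellate cell markers, 2 were lowest in that library (20.0%, against 20.8% of all genes). The 2 were Pdgfrb, at 15.1 CPM against 21.6 to 31.7 elsewhere, and Rgs5, at 66.4 CPM against 71.8 to 107 elsewhere. The markers Ecm1 and Vipr1 were highest there, at 88.5 CPM against 64.3 to 87.5 and at 29.9 CPM against 15.1 to 28.4.

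Other cell types had other patterns. Hepatocyte markers (7 genes) summed to 82200 CPM in Lpcat3 replicate 3, 52700 to 58900 in the other Lpcat3 libraries and 41800 to 70000 in the eGFP libraries. Within the eGFP group the highest hepatocyte sum, 70000 CPM, was that of replicate 4. Lpcat3 replicate 3 had the highest sum of all libraries, of which Alb made up 57000 CPM. In that library Alb, Ttr, Serpina1a, Tat and Fgb were highest, and Apoa1 and Cyp2e1 were not. Cholangiocyte markers (6 genes) came to 39.6 CPM in that library, 85 to 128 in the other Lpcat3 libraries and 38.2 to 86.5 in the eGFP libraries. Macrophage markers (7 genes) came to 188 CPM in that library, 189 to 244 in the other Lpcat3 libraries and 251 to 371 in the eGFP libraries. Lpcat3 replicate 3 was thus lowest for the macrophage sum as well, by a small margin. Of these 7 genes, 4 were lowest there (57.1%, against 20.8% of all genes), among them Gpnmb at 1.05 CPM against 21.6 to 62.8 elsewhere. Clec4f, Csf1r and Adgre1 were not lowest there. Sinusoidal (7 genes) and vascular (5 genes) endothelial markers came to 359 and 98.2 CPM in that library, 319 to 422 and 95.5 to 123 in the other Lpcat3 libraries, and 393 to 440 and 124 to 137 in the eGFP libraries. For the macrophage and the vascular endothelial sums the groups did not overlap, by small gaps (244 against 251 and 123 against 124 CPM). Of single genes, groups did not overlap for 0 of 7 macrophage and 1 of 5 vascular endothelial markers. Among all genes, 2.24% did not overlap with lower values in Lpcat3 livers. None of these markers was at 0 in Lpcat3 replicate 3, and their part in the collagen values was not tested. In whole liver, fewer cells of a type and less RNA per cell cannot be told apart.

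**Figure D5:**
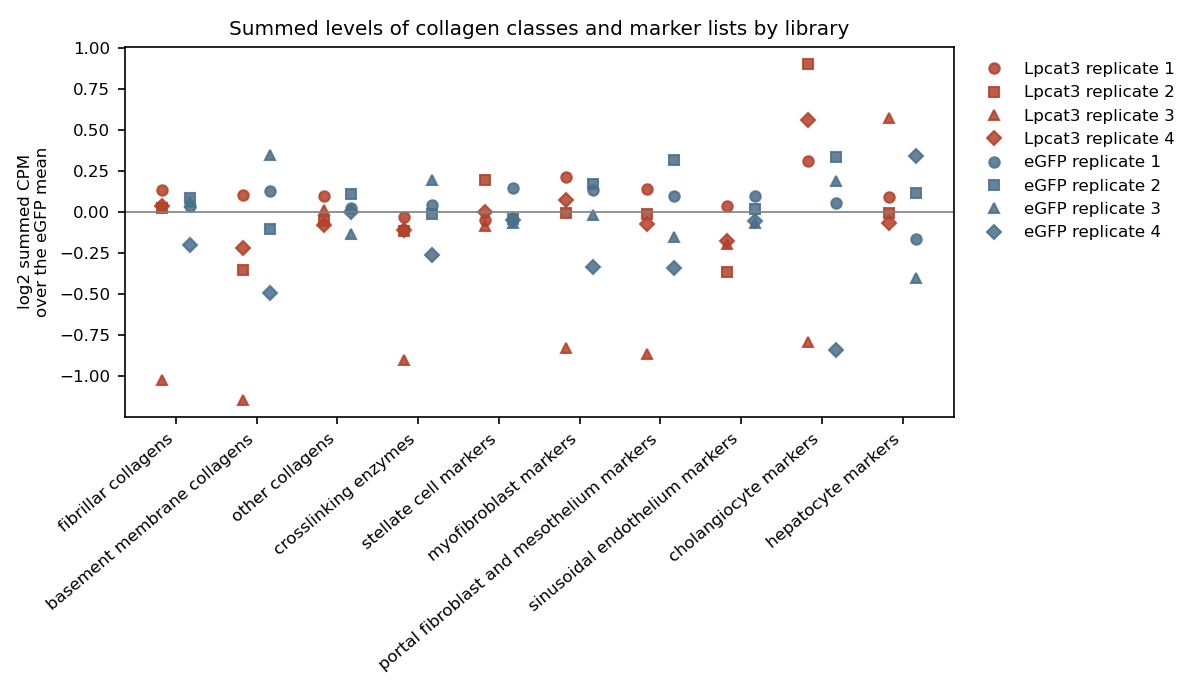
Summed CPM of collagen classes, crosslinking enzymes and cell type markers in every library, as the log2 ratio to the eGFP mean; red symbols are Lpcat3 and blue symbols eGFP libraries, with shapes for replicates 1 to 4. The red triangle, Lpcat3 replicate 3, is lowest for fibrillar and basement membrane collagens, crosslinking enzymes, stellate cell markers (by a small margin), myofibroblast and portal fibroblast markers, and highest for hepatocyte markers.

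Ratios between chains that share a molecule or a fibril were compared in 5 pairs, as CPM ratios without regard to length, so that only libraries and not genes are compared. The ratio of Col1a1 to Col1a2 was 1.76, 1.79, 0.882 and 1.66 in the Lpcat3 libraries, against 1.52, 1.61, 1.84 and 1.75 in the eGFP libraries. Lpcat3 replicate 3 stood below the rest, so that Col1a1 was lower there than in proportion to Col1a2. The ratio of Col4a1 to Col4a2 ran from 1.34 to 1.55 in the Lpcat3 libraries and from 1.23 to 1.71 in the eGFP libraries, with Lpcat3 replicate 3 inside the eGFP range. Col6a1 over Col6a2 was 1.35 to 1.57 in the Lpcat3 libraries and 1.48 to 1.90 in the eGFP libraries, a log2 difference of -0.16 and the smallest p of the 5 (two-sided exact permutation test, p = 0.143, adjusted p = 0.714 over 5 ratios). Col5a2 over Col5a1 was 0.342 in Lpcat3 replicate 3 and 0.597 to 0.683 in the other Lpcat3 libraries, against 0.561 to 0.645 in the eGFP libraries. Col3a1 over Col1a1 was 1.83 in Lpcat3 replicate 3 and 1.07 to 1.24 in the other Lpcat3 libraries, against 1.17 to 1.35 in the eGFP libraries. For both of these ratios too, Lpcat3 replicate 3 lay outside the other 7 libraries. The log2 differences between the groups were -0.19 for Col1a1 over Col1a2, -0.05 for Col4a1 over Col4a2, -0.14 for Col5a2 over Col5a1 and 0.10 for Col3a1 over Col1a1 (exact permutation tests, adjusted p = 0.83 for each). Among the rarer type IV chains, for which no test was run, Col4a3 over Col4a4 was 0.985 to 1.19 in the Lpcat3 libraries and 0.931 to 1.23 in the eGFP libraries. Col4a5 over Col4a6 was 1.64 in Lpcat3 replicate 3, 4.24 to 4.50 in the other Lpcat3 libraries and 3.09 to 6.25 in the eGFP libraries.

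The enzymes that fold and modify collagen chains were followed with 21 genes, of which 20 were tested. Of these, 12 were below 0 and 0 were called (median log2 fold change -0.03, and 0.0 without Lpcat3 replicate 3), and 8 were lowest in Lpcat3 replicate 3. For this list and those below, the shares of all genes were 51.5% below 0, 0.00573% called and 20.8% lowest in Lpcat3 replicate 3. P3h4, a partner of lysyl hydroxylase, was at 1.03 ± 0.187 CPM in Lpcat3 livers and 0.585 ± 0.262 CPM in eGFP livers (log2 fold change 0.80, edgeR adjusted p = 0.579). P3h3, of the same complex, was at 2.96 ± 0.651 CPM in Lpcat3 livers and 2.25 ± 0.292 CPM in eGFP livers, and Creb3l1, a transcription factor that acts on collagen genes, at 3.94 ± 1.96 CPM in Lpcat3 livers and 6.34 ± 2.58 CPM in eGFP livers. The P3h4 groups overlapped in eGFP replicate 3, at 0.965 CPM. Of the procollagen processing list, 8 of 9 genes were tested and 4 were below 0 (median -0.07, and 0.0 without Lpcat3 replicate 3). In that library 2 of the 8 were lowest. Bmp1, the protease that trims the C-terminal propeptide, was at 82.4 ± 8.70 CPM in Lpcat3 livers and 71.8 ± 8.41 CPM in eGFP livers. Adamts14, which trims the N-terminal propeptide, was at 1.75 ± 0.433 CPM in Lpcat3 livers and 2.30 ± 0.345 CPM in eGFP livers, and Pcolce, an enhancer of Bmp1, at 4.85 ± 0.735 CPM in Lpcat3 livers and 5.38 ± 0.483 CPM in eGFP livers. None of these passed the test (edgeR adjusted p = 0.579 to 0.745).

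The lysyl oxidases, which crosslink collagen, were lowest in Lpcat3 replicate 3 for 5 of 5 genes. For Loxl3 the margin was small, at 1.82 CPM there and 1.90 CPM in eGFP replicate 4. Lox was at 3.66, 1.55, 0.0479 and 2.31 CPM in the Lpcat3 libraries, against 3.54, 2.94, 2.64 and 1.16 CPM in the eGFP libraries. Its lowest value rests on very few counts. Loxl2 was at 22, 20.1, 13.6 and 21.1 CPM in the Lpcat3 libraries, against 22.3, 23.5, 28.4 and 21.4 CPM in the eGFP libraries. Loxl4 was at 4.09, 4.42, 3.02 and 4.38 CPM in the Lpcat3 libraries, against 4.48, 3.76, 6.27 and 3.84 CPM in the eGFP libraries. The list's median log2 fold change was -0.21 with 4 of 5 genes below 0 and 0 called, and -0.04 without Lpcat3 replicate 3.

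Proteins that organise fibrils outside the cell were followed with 9 genes, 5 of them below 0 and 0 called (median -0.06, and 0.05 without Lpcat3 replicate 3), and 6 were lowest in Lpcat3 replicate 3. Postn, which encodes periostin, was at 18.5, 11.5, 12.1 and 15.8 CPM in the Lpcat3 libraries, against 22, 22.1, 22.8 and 18.7 CPM in the eGFP libraries. Its groups did not overlap, the 1 case among these 9 genes, against 2.24% of all genes with lower values in Lpcat3 livers. The log2 fold change of Postn was -0.56 (edgeR adjusted p = 0.564). Without Lpcat3 replicate 3 this was -0.48, and -0.38 with a term for the code division. Sparc, a collagen-binding matrix protein, was at 106, 88.7, 55.6 and 94.7 CPM in the Lpcat3 libraries, against 114, 100, 106 and 86.3 CPM in the eGFP libraries, lowest in the same library as the fibrillar genes. Tnxb, tenascin X, was at 46.7 ± 9.41 CPM in Lpcat3 livers and 38.5 ± 5.48 CPM in eGFP livers.

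For collagen degradation, 10 of 11 genes were tested, 5 were below 0 and 0 were called (median 0.01, and 0.02 without Lpcat3 replicate 3). Mmp13, a collagenase, was at 5.25, 3.75, 0.623 and 4.57 CPM in the Lpcat3 libraries, against 6.17, 4.04, 14.5 and 2.89 CPM in the eGFP libraries, so that both libraries numbered 3 were extreme, in opposite directions. Mmp14, a membrane-bound collagenase, was at 23.6 ± 5.10 CPM in Lpcat3 livers and 29.4 ± 6.08 CPM in eGFP livers, and the inhibitor Timp3 at 64.5 ± 8.38 CPM in Lpcat3 livers and 55.0 ± 9.33 CPM in eGFP livers. Of the collagen receptors, 8 of 9 were tested, 5 were below 0 and 0 were called (median -0.10, and -0.06 without Lpcat3 replicate 3). In that library 5 of the 8 were lowest (62.5%). The integrin chain Itga10 was at 1.33, 2.65, 2.73 and 2.35 CPM in the Lpcat3 libraries, against 1.41, 1.18, 1.6 and 0.867 CPM in the eGFP libraries (log2 fold change 0.83, edgeR adjusted p = 0.564). Within codes 1290 and 1317 the difference for Itga10 was -0.05, and within 1344 and 1345 it was 1.48. Lair1, an inhibitory collagen receptor of immune cells, was at 13.4, 11.8, 8.29 and 9.27 CPM in the Lpcat3 libraries, against 21.3, 12.2, 17.3 and 14.0 CPM in the eGFP libraries (log2 fold change -0.60, edgeR adjusted p = 0.564). The macrophage marker sums given above were also lower in Lpcat3 livers, and their part in the Lair1 values was not tested. Itga1, another integrin chain, was at 60.4 ± 5.13 CPM in Lpcat3 livers and 68.0 ± 4.38 CPM in eGFP livers.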

How the data were processed

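The authors deposited 1 table of raw counts per gene, not normalized, for 8 liver libraries. The submitters' processing notes name bcl2fastq 2.20, DESeq2 and the build GRCm39. The aligner, the counter and its strand setting were not given in the sources used here, although the kit is stranded per the labels' protocols. Symbols came from a RefSeq table of GRCm38.p6, which matched 39397 of 40838 rows (99.51% of counts).

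Groups were compared with edgeR 4.0.16 in R 4.3.3 (filterByExpr minimum count 10, TMM, glmQLFit with robust estimation, glmQLFTest, Benjamini-Hochberg over 17438 genes, called at 0.05). The biological coefficient of variation was 16.9%. CPM used the deposited counts and library totals scaled by TMM, and log2 CPM used a prior count of 2. Levels per kb used the union of exons of GENCODE vM21 coding transcripts. Intervals for fold changes are 95% intervals from the same fit. Single ratios had two-sided exact permutation tests. The steps were tested on simulated data.

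Alternatives were other scalings, filters and tools (limma 3.58.1, DESeq2 1.42.0), each library left out, a replicate block and the code division as a term. Values per library are given for members at 5 CPM or more and the 2 of each class with the smallest p, and up to 3 genes per pathway list by p. Col4a5 and Col8a1 are given by library after their values were seen. Members, classes and lists were chosen with earlier results of these data known. Within-code values without Lpcat3 replicate 3 were added after seeing the data.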

Additional observations from a re-analysis of the deposited data

Results flagged for a closer look

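In groups of 4 libraries, the gap of the highest or lowest library to its neighbour was divided by the group's range and set against Dixon's critical value at 95% for that size. Of 110 groups of values looked at (single genes named above and sums over lists), 11 were past it (10%). The critical value is set for about 1 in 20 among independent, normally distributed values. These groups share libraries, some sums hold genes also taken singly, and some genes have few counts. The share past it therefore cannot show an excess.

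Lpcat3 replicate 3 was the library in 4 of the 11 groups past the critical value. It was lowest of the Lpcat3 group for Col3a1 (0.884; 24.1 CPM against 81.4 to 88.9), for Col4a5 (0.978; 1.10 against 3.18 to 3.23) and for summed fibrillar collagens (0.863; 135 against 278 to 301), and highest for Col25a1 (0.91; 1.20 against 0.318 to 0.398). In the eGFP group, replicate 4 was lowest for Col3a1 (0.949; 69.0 CPM against 89.9 to 91.0) and for Col6a3 (0.886; 31.3 against 50.0 to 52.4). Replicate 2 of that group was highest for Col20a1 (0.877; 4.82 against 3.22 to 3.42) and Col17a1 (0.831; 0.654 against 0.314 to 0.372), and replicate 3 was lowest for Bmp1 (0.921; 59.2 against 75.2 to 76.5). Lpcat3 replicate 4 was highest for Col6a6 (0.858; 1.03 against 0.387 to 0.479), and Lpcat3 replicate 1 for Itga1 (0.89; 68.1 against 57.2 to 58.4).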

How the results depend on the processing

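No collagen member and no pathway gene was called under any of the 18 alternatives run on the calls. Over all genes the count called was 1, and it was 3 with library totals, 2 without robust estimation, 51 with DESeq2, and 0 with no filter, with the filter at 40, without both libraries numbered 3, with the replicate block and with a term for the code division. It ran from 0 to 7 when each library was left out. The Lpcat3 log2 fold change passed with library totals (1.12, adjusted p = 0.0234), with DESeq2 (1.25, adjusted p = 9.77e-09) and without Lpcat3 replicate 1 (1.36, adjusted p = 0.0477), and over the libraries left out it ran from 1.10 to 1.36. The fibrillar median, -0.23 over all libraries, was 0.17 within codes 1344 and 1345 without Lpcat3 replicate 3.

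Estimates that turned in sign did not pass the test. Without both libraries numbered 3 they were 0.13 for Col1a1, 0.05 for Col3a1, 0.02 for Col1a2, 0.04 for Col5a2, 0.09 for Col12a1, 0.18 for Col6a2, -0.10 for Col18a1, 0.09 for Loxl4 and 0.05 for Mmp13. With a term for the code division they were 0.02 for Col1a2, 0.03 for Col5a3, 0.10 for Col6a2 and 0.24 for Lox. Library totals, which shift the median gene by -0.12, gave -0.07 for Col18a1 and -0.09 for Col15a1, and limma-voom gave -0.03 for Col18a1 and 0.02 for Col6a2. With each library left out, ranges were -0.47 to 0.08 for Col1a1, -0.40 to 0.02 for Col1a2, -0.40 to 0.01 for Col3a1, -0.11 to 0.00 for Col5a3, -0.15 to 0.18 for Col6a2, -0.12 to 0.18 for Col15a1 and -0.04 to 0.09 for Col18a1. Ratios as log2 differences ran from -0.29 to 0.05 for Col1a1 over Col1a2, -0.06 to 0.20 for Col3a1 over Col1a1, -0.14 to 0.02 for Col4a1 over Col4a2 and -0.26 to 0.08 for Col5a2 over Col5a1. Without both libraries numbered 3 these 4 were 0.09, -0.07, 0.04 and 0.05. Within codes 1290 and 1317 they were 0.09 for Col1a1 over Col1a2, -0.21 for Col3a1 over Col1a1 and 0.02 for Col5a2 over Col5a1, and within 1344 and 1345 Col4a1 over Col4a2 was 0.17. The cause was not tested beyond the libraries left out. Of 666 alternatives for single named genes, 28 turned in sign. The fibrillar median turned in sign in 5 of 21 alternatives, that of the other collagens in 10 of 21, that of all members in 8 of 21 and that of the basement membrane class in 0 of 22. That last median follows the rare type IV chains, and the negative estimates of Col4a1 and Col4a2 turned in sign in 0 of 18 alternatives each. The list medians turned in 10 of 21 alternatives for degradation, 6 for organizers, 3 each for crosslinking and for folding, 2 for receptors and 1 for processing.

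Replicate numbers did not pair the libraries: deviations of same-numbered libraries correlated at 0.285, -0.069, -0.4 and -0.124 across genes. The highest correlation between an Lpcat3 and an eGFP library was 0.471, of Lpcat3 replicate 3 with eGFP replicate 4. With the replicate block the fibrillar median was -0.29 and 0 members were called. With 4 libraries a group and a coefficient of variation of 16.9%, members under 1 CPM rest on few counts, and intervals cover only the spread between these libraries.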
